A study of Mus musculus with 8 samples.

Results

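The genes described here build the motile cilium: axonemal dyneins, the factors that assemble and dock them, the nexin-dynein regulatory complex, radial spokes, the central apparatus, tektins and other proteins of the microtubule lumen. They are a list of 54 gene symbols, matched to the array by the name printed there or by the current symbol or synonym of the probe's accession. Of the 54, 53 had at least 1 probe, 94 probes in all, and Ccdc114 matched none. After a filter on low signals 26 of the 54 were tested, among 16071 genes tested on the whole array.

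The cells were IMCD3, an established mouse line derived from the inner medulla of the kidney, where collecting ducts end. Starved cells had spent 48 h in medium without fetal calf serum, which the labels give as the way to make them grow cilia. Unstarved cells were kept in 10% serum, had been split at a 10-fold dilution 1 day before harvest and had not reached confluence, so serum and cell density differ together and cannot be told apart. There were 8 samples, 4 starved and 4 unstarved, paired on 4 Agilent 2-colour arrays that form 2 replicates (arrays 1 and 3, arrays 2 and 4), and both groups carry the same line with no added allele or agent.

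A motile cilium beats because dynein motors, attached in rows to its outer microtubule doublets, slide neighbouring doublets past each other. The nexin-dynein complex, the radial spokes and the central apparatus restrain and time that sliding, and tektins and other inner proteins line the doublet wall. Primary cilia, the kind that collecting duct cells carry, grow on the same kind of doublets but are generally built without dynein arms and a central pair. The series title names FOXJ1, the transcription factor that switches on motile cilium genes in airway epithelium and in the embryonic left-right organizer. The comparison asks which of these genes differ between starved and unstarved cells of a kidney line. The arrays hold no measure of cilia, so a difference cannot be tied to cilium growth.

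Of the 26 tested genes, 11 were higher and 1 was lower in starved than in unstarved cells, and 14 did not pass (limma, two-sided, Benjamini-Hochberg adjusted p below 0.05 over all genes tested). These were 42.3% and 3.85% of the list's tested genes, against 18.1% higher and 13.3% lower among all genes tested. The list was chosen with earlier results of these data known, so these shares describe it and are not an independent test. The median log2 ratio of the 26 was 0.26 (0.22 in replicate 1 and 0.29 in replicate 2), against 0.01 over all genes tested. That median is over genes that passed the filter on low signals, and with dim probes kept it was 0.048. The ratio was above 0 on all 4 arrays for 16 of the 26, against 36.1% of all genes, and below 0 on all 4 for 4 of them, against 33.2%. In 18 of the 26 the probe was well above background on every array of both groups. The other 8 entered the test through 1 group, which can favour a gene that differs, and 2 of the 12 called genes, Ttc25 and Ccdc39, are among these 8. By role, those that rose were 3 of 3 tested radial spoke genes, 2 of 2 assembly and docking genes and 3 of 5 nexin-dynein and ruler genes. Ccdc39 is among the last, with limma adjusted p = 0.0734 when the replicate was a random block. Further rises were 2 of 7 tektin and inner protein genes and 1 of 3 genes of other roles. In the list 0 of 2 dynein heavy chains, 0 of 3 intermediate and light chains and 0 of 1 central apparatus gene rose. Dnah7c, a heavy chain outside the list, did rise. In bulk RNA such a difference cannot be split into more cells with a transcript and more transcript per cell.

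**Figure D1:**
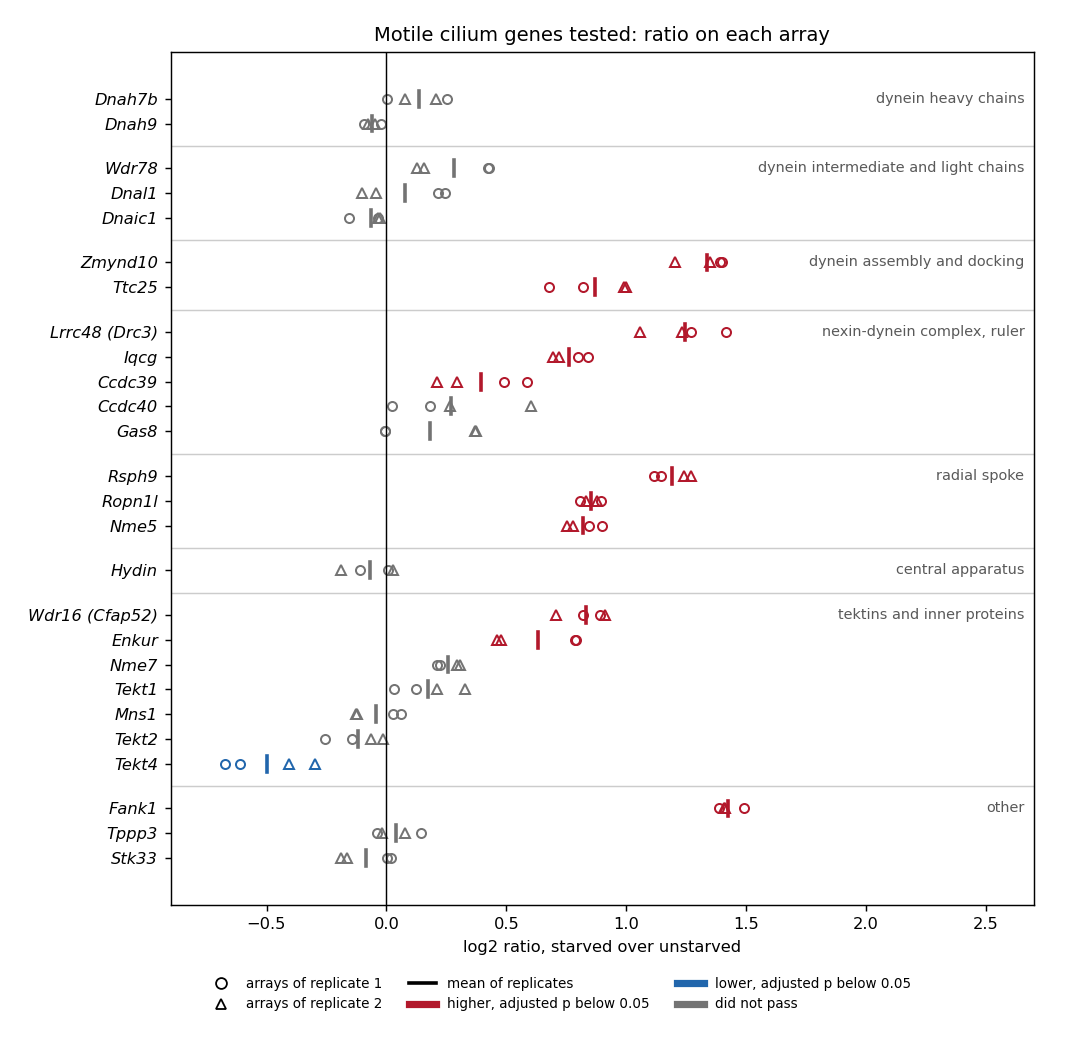
Log2 ratio of starved over unstarved cells (x axis) on each of the 4 arrays for the 26 tested genes, grouped by role; circles are arrays of replicate 1, triangles those of replicate 2, and bars the mean of the 2 replicates. Genes that passed as higher (11, red) lie to the right from Ccdc39 at 0.40 to Fank1 at 1.42, Tekt4 (blue) lies at -0.50, and the 14 that did not pass (grey) have means between -0.12 and 0.28.

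The count of calls depended on how the dyes were balanced. With median centring in place of loess, 0 of the 26 passed in either direction, while 0.828% of all genes tested passed as higher and 0.722% as lower. Fank1 had 1.42 with either, Rsph9 had 1.07 with median centring against 1.19 with loess, and Iqcg had 0.66 against 0.76. Among genes that did not pass, Nme7 had 0.13 against 0.26, Gas8 0.08 against 0.18 and Mns1 -0.18 against -0.04. The moderated standard error was 0.43 with median centring, against 0.123 to 0.132 with loess. The lowest adjusted p of the list was then 0.06. Pairing the arrays as 1 with 2 and 3 with 4 gave 17 higher and 6 lower genes of the list, but also 7338 higher and 6952 lower genes over the array, so the larger count is not particular to the list.

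Among the assembly and docking factors, Zmynd10, a cytoplasmic co-chaperone with which dynein arms are preassembled, had log2 levels of 9.12, 8.803, 8.99 and 8.93 in starved samples (arrays 1 to 4), against 7.72, 7.60, 7.60 and 7.58 in unstarved samples. A level here is the log2 intensity of 1 dye channel after normalization. The Zmynd10 ratio was 1.34 ± 0.12 (SE, n = 2 replicates, limma adjusted p = 5.05e-07), 2.52-fold. Ttc25, a docking complex protein that ties outer arms to the doublet, had starved levels of 7.86, 7.87, 7.91 and 8.02, against unstarved levels of 7.18, 6.87, 7.09 and 7.03. Its ratio was 0.87 ± 0.13 (limma adjusted p = 6.44e-05), and its probe was well above background on 4 starved arrays but on 1 unstarved array. The unstarved level of Ttc25 is therefore close to background. Lrrc6, another assembly factor, and Armc4, another docking protein, were not well above background on any array, with 3 probes between them.

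The motors themselves gave little signal. The 11 axonemal dynein heavy chains, the ATP-driven motor subunits, had 32 probes, of which 27 were not well above background on any array. Dnah3, Dnah5, Dnah6, Dnah8, Dnah10 and Dnah12 had no probe above background on any array, while Dnah1, Dnah2 and Dnah11 were above it on some arrays of both groups and were not tested. Dnah5 and Dnah11 belong to the outer arm and Dnah1 and Dnah2 to an inner arm. Of the tested pair, Dnah7b, an inner arm heavy chain, had ratios of 0.00, 0.08, 0.25 and 0.21 on arrays 1 to 4 (mean 0.13 ± 0.12, limma adjusted p = 0.444). Its starved levels of 7.10 to 7.36 overlapped unstarved levels of 6.92 to 7.15, and the probe was above background on 4 starved and 2 unstarved arrays. Dnah7b has near-identical relatives that its probe may not separate. Dnah9, an outer arm heavy chain, had -0.10, -0.05, -0.02 and -0.08 (mean -0.06 ± 0.12, adjusted p = 0.749), with the probe above background on 3 starved and 4 unstarved arrays. Neither heavy chain passed here, but with the processed signals of the scanner software Dnah7b had 0.41 and passed (adjusted p = 0.0392). With the deposited value table it had 0.37 and did not (adjusted p = 0.0555). Dnah7c, a heavy chain outside the list, was higher in starved cells, with a bound of at least 1.39-fold (limma adjusted p = 0.00255). Dnah7a, Dnah14 and Dnah17, also outside the list, were not above background on any array.

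Intermediate and light chains sit at the base of the arms and were measured for 3 of 6 genes, none of which passed. Wdr78, an intermediate chain of an inner arm, was highest with 0.42, 0.13, 0.43 and 0.16 (mean 0.28 ± 0.13, limma adjusted p = 0.106). The arrays of replicate 1 gave the larger values. Dnal1, a light chain of the outer arm, is singled out after its values were seen because its probes disagreed: the brighter one averaged 0.08 (adjusted p = 0.683) and the other was below 0 on every array, from -0.36 to -0.18. Dnaic1, the remaining tested gene, was well above background on every array of both groups, with a mean of -0.06 ± 0.12 (limma adjusted p = 0.740). Dnaic2, Dnali1 and Wdr63 were not well above background on any array.

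Of 11 heavy chains 6 were at 0 arrays in both groups and 2 were tested. By comparison, 5 of 6 nexin-dynein and ruler genes and 7 of 8 tektin and inner protein genes had signal enough to be tested. Over the whole array 58.3% of genes with a probe were tested, and of the listed genes 49.1%.

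**Figure D2:**
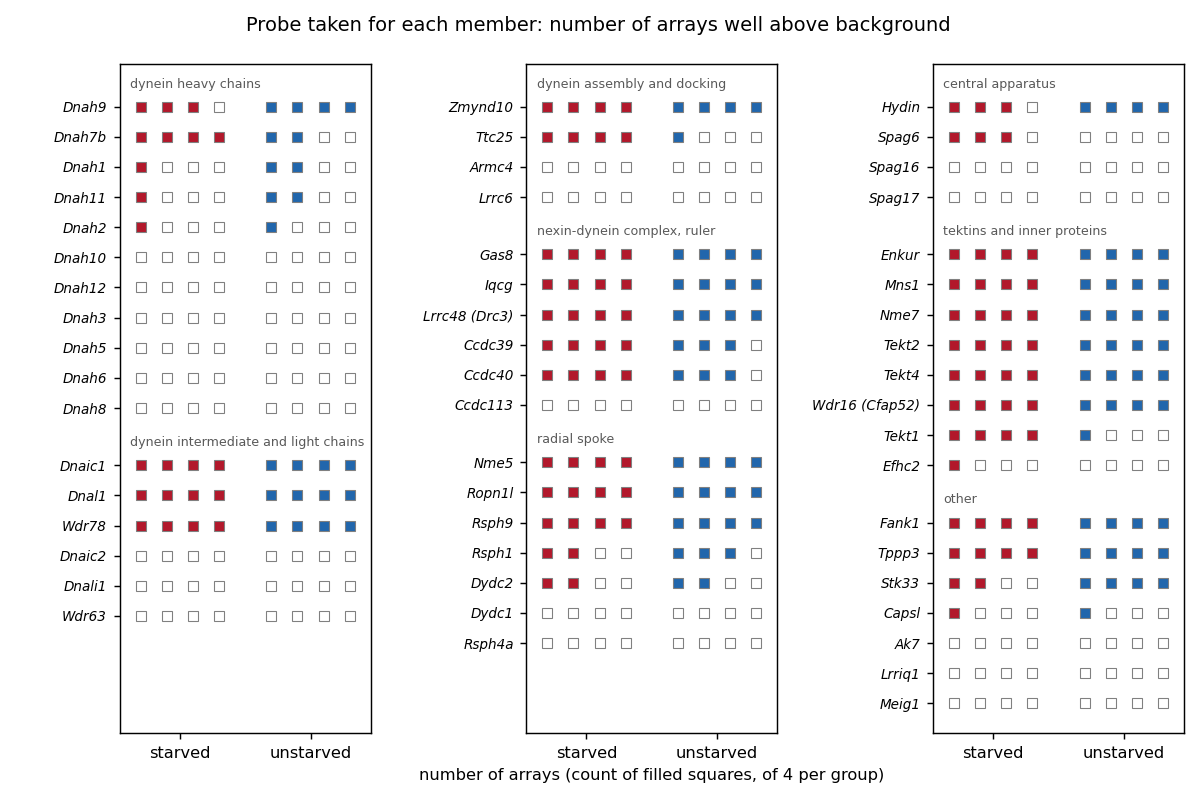
Number of arrays, of 4 starved (red) and 4 unstarved (blue), on which each of the 53 members with a probe was well above background; the number of filled squares is the count and their order carries no meaning. For untested members the count is the highest over their probes. For 19 members all squares are empty, and Spag6 has 3 starved and 0 unstarved arrays.

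In the nexin-dynein regulatory complex, the link between neighbouring doublets, Lrrc48 (current symbol Drc3) had starved levels of 8.61, 8.36, 8.48 and 8.37, against unstarved levels of 7.34, 7.30, 7.07 and 7.14. The ratio was 1.24 ± 0.13 (limma adjusted p = 1.31e-06). Iqcg, also a subunit of this complex, was tighter still, at 13.01, 13.04, 13.02 and 13.03 in starved samples against 12.21, 12.33, 12.18 and 12.33 in unstarved samples. Its ratio was 0.76 ± 0.12 (adjusted p = 1.85e-04). Ccdc39 and Ccdc40 together form the ruler that sets the spacing of arms and spokes along the doublet. Ccdc39 had starved levels of 7.73, 7.51, 7.65 and 7.56, against 7.14, 7.21, 7.16 and 7.35 in unstarved samples, a ratio of 0.40 ± 0.13 (adjusted p = 0.0263). Replicate 1 gave 0.54 and replicate 2 gave 0.25 for Ccdc39, so leaving out replicate 1 lowers its value by more than 1.5 times, and with the replicate as a random block it did not pass (adjusted p = 0.0734). Its partner Ccdc40 had 0.02, 0.60, 0.18 and 0.26 (mean 0.27 ± 0.13, adjusted p = 0.131) and did not pass. Gas8, a core subunit singled out after its values were seen, had -0.01 in replicate 1 and 0.37 in replicate 2 (mean 0.18, adjusted p = 0.323), so its replicates did not share a direction. Ccdc113 was not well above background on any array.

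Radial spokes reach from the doublet towards the central pair and pass signals to the dyneins. Rsph9, a spoke head protein, had starved levels of 13.42, 13.71, 13.60 and 13.65, against unstarved levels of 12.30, 12.44, 12.46 and 12.41. The ratio was 1.19 ± 0.12 (limma adjusted p = 1.82e-06), 2.29-fold. Ropn1l, a spoke protein of the stalk with a docking domain for kinase-anchoring partners, had ratios of 0.89, 0.88, 0.81 and 0.83 (mean 0.85 ± 0.12, adjusted p = 5.91e-05). Its second tested probe was also above 0 on every array, at 0.61 to 0.95. Nme5, a spoke protein of the nucleoside diphosphate kinase family, had 0.90, 0.75, 0.85 and 0.78 (mean 0.82 ± 0.12, adjusted p = 9.38e-05), and its second probe gave 0.75 to 0.86. The remaining spoke genes, Rsph1, Rsph4a, Dydc1 and Dydc2, were too dim to test, Rsph1 and Dydc2 being above background on some arrays of both groups.

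The Rsph9 and Lrrc48 probes show what was hybridised for these genes. Both are printed as the array files give them, in lower case because no stretch is singled out. The Rsph9 probe is assigned to chromosome 17, from 45592911 to 45592970 on the minus strand, and the Lrrc48 probe to chromosome 11, from 60203505 to 60205013 on the plus strand, a span longer than its 60 bases (build mm8, per the file headers). Each has 1 reading frame without a stop codon.
Rsph9: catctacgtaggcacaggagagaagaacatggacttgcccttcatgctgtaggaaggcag
Lrrc48: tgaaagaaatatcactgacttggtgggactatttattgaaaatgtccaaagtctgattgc

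The central apparatus was represented by 4 genes, and 1 of them was tested. Hydin, a very large protein of the projections on the central pair, had -0.11, -0.19, 0.01 and 0.03 (mean -0.07 ± 0.12, limma adjusted p = 0.723), with overlapping groups. Spag16 and Spag17 were not well above background on any array. Spag6 had 3 probes, and the only one with signal belongs to the near-identical gene now called Spag6l, so which copy gave it is uncertain. That probe was above background on 3 of 4 starved and 0 of 4 unstarved arrays, which gives starved cells at least 1.25-fold more signal than unstarved cells. The bound sets the measured starved mean of 7.24 against the lowest level of any probe well above background on each array. The measured unstarved mean was 6.65. That lowest level is not a strict detection limit: Dnah11, with an unstarved mean of 7.355, was above background on only 2 unstarved arrays. The starved mean includes 1 array where the Spag6l probe was not above background, so the bound may be too high.

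Tektins and microtubule inner proteins went in both directions. Wdr16 (Cfap52), an inner protein of the doublet, had ratios of 0.89, 0.91, 0.82 and 0.71 (mean 0.83 ± 0.12, limma adjusted p = 7.46e-05). Enkur, another inner protein, had starved levels of 10.72, 10.54, 10.74 and 10.66, against unstarved levels of 9.93, 10.06, 9.95 and 10.19. Its ratio of 0.63 ± 0.13 (adjusted p = 0.00138) came from 0.79 in replicate 1 and 0.47 in replicate 2. Tekt4, a tektin known from sperm flagella, was the only tested member that fell, with starved levels of 9.01, 8.94, 9.21 and 8.81, against 9.68, 9.24, 9.82 and 9.21 in unstarved samples. The highest starved level (9.208) lay just under the lowest unstarved level (9.215), and the ratio was -0.50 ± 0.13 (adjusted p = 0.0071), from -0.64 in replicate 1 and -0.35 in replicate 2. Nme7, an inner protein that is also part of the gamma-tubulin ring complex, had 0.21, 0.30, 0.22 and 0.31 (mean 0.26 ± 0.12, adjusted p = 0.126), above 0 on every array but short of the threshold. Tekt2, a tektin of the doublet, was the lowest that did not pass, with -0.26, -0.06, -0.14 and -0.01 (mean -0.12 ± 0.12, adjusted p = 0.509). Tekt1 and Mns1 had means inside the range of the genes that did not pass, and Efhc2 was above background on 1 starved array only.

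Fank1, a protein with fibronectin and ankyrin repeats first known from the testis, had the largest ratio of the list. Its starved levels were 8.74, 8.62, 8.73 and 8.74, against 7.36, 7.21, 7.24 and 7.33 in unstarved samples. The ratio was 1.42 ± 0.12 (limma adjusted p = 2.26e-07), 2.69-fold, and a second probe gave 1.11 to 1.14. Stk33, a serine/threonine kinase, had 0.02, -0.19, 0.00 and -0.16 (mean -0.08 ± 0.13, adjusted p = 0.655). Tppp3, which promotes tubulin polymerisation, lay in the range of those that did not pass. Ak7, Meig1 and Lrriq1 were not above background on any array, and Capsl was above it on 1 starved and 1 unstarved array. Of the 12 called genes, 4 differed at least 2-fold in the fit used here: Fank1, Zmynd10, Lrrc48 and Rsph9. The count depended on the background correction and the signal taken. With a smaller normexp offset of 10, Ttc25 had a log2 ratio of 1.14, also above 2-fold. Fank1 then had 1.72 and Lrrc48 1.54, while Rsph9 stayed at 1.19. With the processed signals and with the deposited value table, Ttc25 had 1.81 and Wdr16 1.02, both above 2-fold. No share of all genes at 2-fold is given for comparison.

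**Figure D3:**
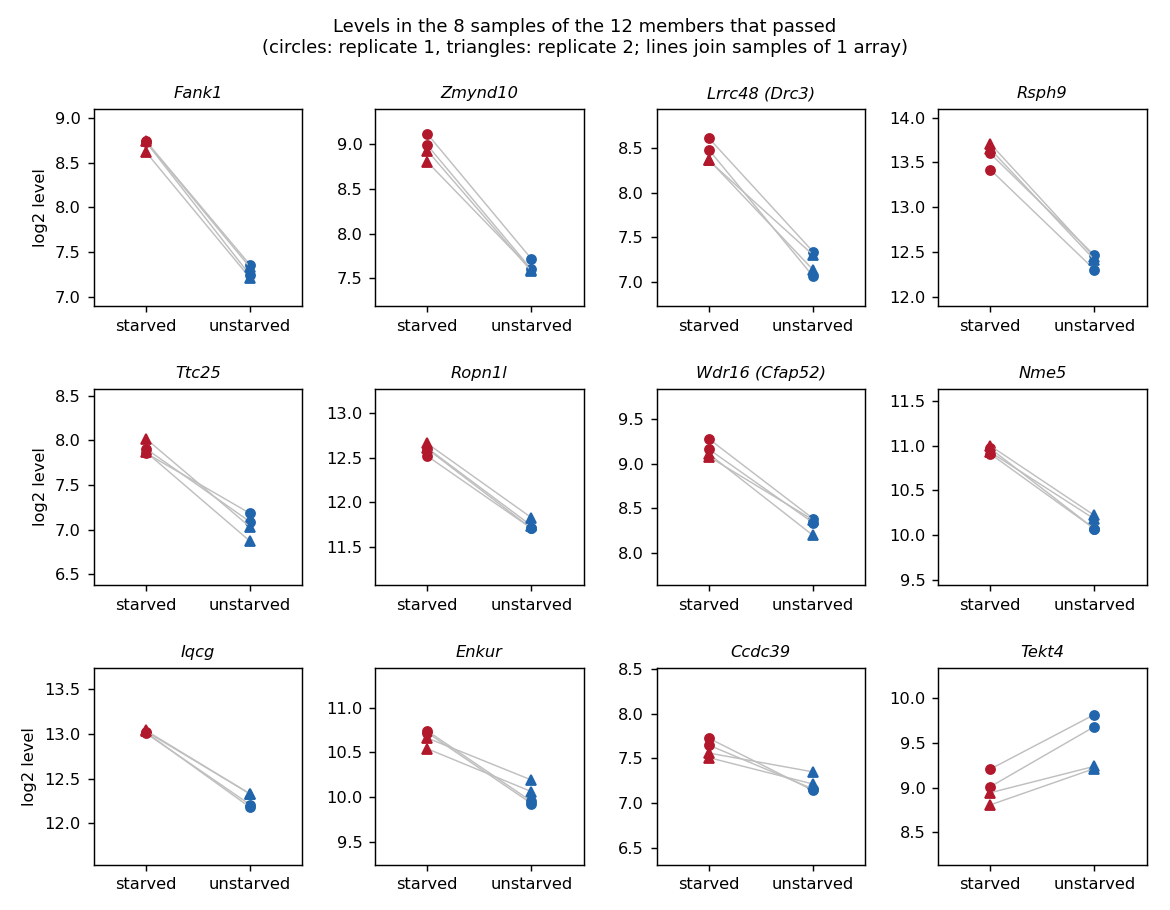
Log2 level in each of the 8 samples for the 12 genes that passed, starved (red) left and unstarved (blue) right of each panel; lines join the samples of 1 array, and every y axis spans the same number of log2 units, though its position is that of the gene's own probe. In the Tekt4 panel the lines rise to the unstarved side, and in the other 11 panels they descend to it.

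The size of the ratio also varied with the signal taken from the scanner files. With the processed signals of the scanner software, Fank1 had 2.27, Lrrc48 1.90, Ttc25 1.81 and Ccdc39 0.85, each over 1.5 times its value above, and the deposited value table gave the same. The median of the 26 was then 0.41 and 0.39, against -0.009 with each over all genes tested. Of the 26, 14 and 13 passed as higher, against 2694 and 2736 of 16071 genes. Ccdc40 and Tekt1 were gained in both, and Dnah7b with the processed signals alone. Rsph9, Iqcg and Ropn1l stayed close to the values above.

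**Figure D4:**
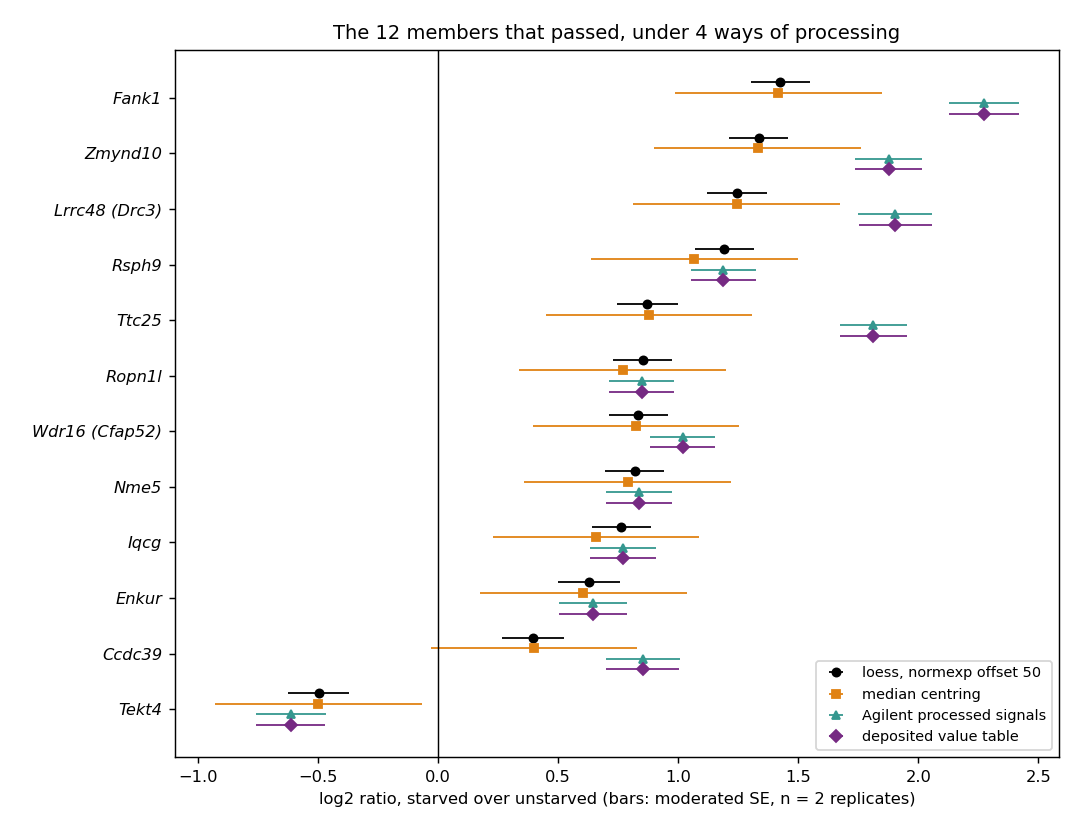
Log2 ratio, starved over unstarved, as points with bars of 1 moderated standard error (n = 2 replicates) for the 12 genes that passed, under loess, median centring, the processed signals and the deposited value table. With median centring the bars widen to 0.43 and Rsph9 shifts from 1.19 with loess to 1.07 and Iqcg from 0.76 to 0.66, and both processed versions move Fank1, Zmynd10, Lrrc48, Ttc25 and Ccdc39 to the right.

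Other motile cilium genes outside the list were counted for context, and these too were chosen with earlier results of these data known. Of 89 names 66 had a probe and 37 were tested, of which 14 were higher and 4 lower in starved cells (37.8% and 10.8%, against 18.1% and 13.3% of all genes tested), with a median of 0.23. The higher ones were Spaca9, an inner protein (1.35), Morn5 (0.75), Rsph3a, a radial spoke protein (0.71), Ccdc96 (0.66), Cfap126 (0.62), the assembly factors Dnaaf4 (0.56) and Ccdc103 (0.50), Cfap70 (0.54), the docking protein Ccdc151 (0.39), Cfap410 (0.34) and 4 genes with only a bound, Dnaaf1, Dnah7c, Cfap45 and Spata17. The lower ones were Drc1, a nexin-dynein subunit (-0.71), Efcab2 (-0.48), Wdr92, an assembly cofactor (-0.37), and Cfap157 (-0.36). The fall of Drc1 stands beside the rise of Lrrc48 and Iqcg in the same complex. Cfap45 and Dnah7c were not above background on any unstarved array, so their rises are bounds of at least 1.31-fold and at least 1.39-fold (limma adjusted p = 0.0134 and 0.00255). The tested probes of Dnaaf1, an assembly factor, and Spata17 were likewise above background on no unstarved array, though another probe of each gene was on 1, and their rises are bounds of at least 1.45-fold and at least 1.24-fold (limma adjusted p = 0.00166 and 0.0417). Another probe of Efcab2 had the opposite sign, and the probe of Dnah7c, a dynein heavy chain, may also read its close relatives. The 4 genes with only a bound entered the test through the starved group alone, which can favour a gene that differs. They are counted in the 37.8%. Of the 37 tested genes, 29 were above background on every array of both groups.

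Among regulators of ciliogenesis, 14 were tested, of which 2 were higher and 2 lower (14.3% each, against 18.1% and 13.3% of all genes tested). Foxj1 (0.50, limma adjusted p = 0.00683) and Rfx2 (0.47, adjusted p = 0.0078), factors that activate motile cilium genes, were higher, and E2f4 (-0.55) and Myb (-0.41), which act early in multiciliated cells, were lower. Of 10 genes listed as multiciliated cell markers 8 had a probe and 4 were tested, and Foxj1 alone of these passed. The 3 that did not pass were all below 0, from -0.34 to -0.08. Ccno was the lowest of them (limma adjusted p = 0.0511), with its probe above background on 1 starved and 4 unstarved arrays. That list also holds Scgb1a1, a gene of secretory airway cells. Deup1 and Cdc20b, needed for mass production of centrioles, and Tmem212 and Sntn were not above background on any array. All 15 collecting duct markers were tested, 8 higher and 2 lower (53.3% and 13.3%). Of 8 fibroblast markers 6 were not above background on any array, and of the other 2, above it on every array, Col1a1 was lower (-1.01, limma adjusted p = 1.04e-05). Of 4 tested leukocyte markers Csf1r was higher (1.44) and Ptprc lower (-0.50). None of the 4 tested spermatid markers passed. The part of other cell types in the results was not tested.

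Promoters of the members were read for motifs of the factors named above, as a description with no test. RefSeq's table (GRCm38.p6, 250 bases before the start of a transcript and 50 after) held 51 promoters of 44 members. The RFX motif GTTGCCA, on either strand, stood in 11 of the 51 (21.6%), against 4.38% of all 32851 promoters in the table. It was found in 2 of 9 members that passed as higher, in 6 of 12 other tested members and in 3 of 23 that were too dim or had no probe. An X-box of 1 strict spelling (GTTNCC, up to 3 bases, GGNAAC) stood in 1 promoter, that of Dydc1 (1.96%, against 0.804%), where it overlaps the RFX motif. Looser spellings of the 2 arms were not searched, so other members may carry an X-box. The forkhead motifs GTAAACA and ATAAACA stood in 4 promoters (7.84%, against 7.97%), those of Spag17, Ccdc113, Ak7 and Dnah12, none of which was measurable here.

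The windows below show the RFX motif in the 2 genes that rose, Iqcg and Zmynd10, and in the 6 tested genes that carry it and did not pass. Capitals mark the motif, each sequence is written along the gene's strand, and a motif that reads TGGCAAC lies on the opposite strand. Iqcg carries it 19 bases before the start (chr16:33056188-33056216, minus strand), and Zmynd10 from 38 bases after it (chr9:107547331-107547353, plus strand). Tekt1 has it 15 bases before the start (chr11:72361880-72361908, minus), Hydin 14 (chr8:110266952-110266980, plus), Mns1 73 (chr9:72438445-72438473, plus) and Dnah7b 163 (chr1:46066679-46066707, plus). In Nme7 it begins 3 bases before the start and runs across it (chr1:164307658-164307686, plus). Gas8 has it from 40 bases after the start (chr8:123518864-123518884, plus).
Iqcg: ttgcgcgacgcGTTGCCAtagctaccgat
Zmynd10: cttcaacggctTGGCAACtgccc
Tekt1: gcgtccgtccgGTTGCCAtagagaccgca
Hydin: tgcggttgctgTGGCAACagatggtaaca
Mns1: gcgctcctgccTGGCAACgaagactctcc
Dnah7b: acaggagcacaGTTGCCAcccacccttaa
Nme7: gcggggcttgcGTTGCCAgagtaaccgga
Gas8: atctagtcggaGTTGCCAgga
The 6 genes that did not pass had ratios from -0.07 (Hydin) to 0.26 (Nme7).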

How the data were processed

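RNA of starved and unstarved IMCD3 cells was hybridised to 4 Agilent 2-colour arrays, each deposited as 2 samples, 1 per dye. Deposited spot intensity values (mean signal, median background) were exported by Agilent Feature Extraction (version 9.5.3.1, per the submitters' processing notes), and the flags for background are other values of these deposited files. How the authors scaled or centred the deposited value table stays unknown. Its column medians were 75.4 to 77.1 in starved and 74.7 to 75.7 in unstarved samples. Its log ratios, taken by the dye labels, correlated with the scanner's at 0.992 or more. Its columns therefore follow those labels, but both sides use them, so this cannot test the labels themselves.

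In limma 3.58.1 (R 4.3.3), normexp with an offset of 50 corrected the background and loess normalized each array. Control spots (1639 of 45018 per array) and 583 flagged spots were left out, and 0 spots were saturated. Log ratios were turned to starved over unstarved. By the labels replicate 1 carries starved RNA in Cy5 on both arrays and replicate 2 in Cy3, so dye orientation and replicate go together, although the series text speaks of a dye swap within each pair. Within a replicate the arrays were averaged, and the 2 means were fitted with lmFit and eBayes, two-sided. The error therefore leans on the spread of all genes together (prior SD 0.179, 14.9 prior degrees of freedom). Over genes, which are not independent, the replicates correlated at r = 0.831. The series text calls them biological (2 dishes per group), and p-values measure the spread between them. Per the file headers, 1 slide and 1 scan held every array, so no such batch could be tested. The number of arrays limits the precision.

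A probe was tested when well above background on 4 arrays of either group (24610 probes), and the brightest such probe stood for a gene (16071 genes, 2845 with an array name only). RefSeq's gene table named 24496 probes by accession, 6236 by symbol and 2409 by synonym, and 8033 kept the array's name. Of genes with a probe 58.3% were tested, and of the listed genes 49.1%. Bounds set a measured group mean against the lowest signal well above background on each array, from single channels after loess and Aquantile, and are open to dye bias. That lowest signal is not a strict detection limit, so a bound may be too high. The ratio within an array is the pairing, as the series text states it. Same-numbered samples deviated from their groups with a correlation of -0.297 over genes, but carry opposite dyes, so this cannot test the pairing.

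The genes, role groups, other lists and motifs were chosen with earlier results of these data known. Genes past the threshold are given by sample or array, and of the others the 3 highest, the 3 lowest and every dynein heavy chain. The fit was tested on simulated data. Alternatives covered centring, background correction, filters, probe averaging, array pairings, a dye term, the replicate block and leaving out arrays or replicates.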

Additional observations from a re-analysis of the deposited data

Results flagged for a closer look

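Of 52 groups of 4 samples examined, 3 held a sample far from the others, close to the 1 in 20 that chance gives. The starved level of Fank1 on array 2 was 8.62, against 8.73 to 8.74 on the other starved arrays. The unstarved level of Zmynd10 on array 1 was 7.717, against 7.58 to 7.60 on the other unstarved arrays. The unstarved level of Tekt1 on array 4 was 6.858, against 7.10 to 7.15 on the other unstarved arrays, where its probe was well above background on 1 array. The Fank1 and Zmynd10 groups stayed apart with these samples included, and both genes passed without any single array. The arrays of a replicate are technical repeats, so the 4 samples of a group are not 4 cultures.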

How the results depend on the processing

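The 12 called genes kept their direction under each alternative that gave them a value. Median centring called 0 members higher and 0 lower, its shared spread being 0.608 against 0.179, and all 12 calls were lost. With pairings 1+2 and 3+4, 17 were higher and 6 lower, with 1+4 and 2+3, 18 and 7, and with a dye term 17 and 6; these settings call most genes of the array in the same way. With the pair kept as a random replicate block, 11 were higher and 1 lower, against 3052 and 2315 of all 16071 genes. In that fit Ccdc39 lost its call (limma adjusted p = 0.0734) and Nme7 gained one (0.0418). With no replicate block the counts were again 11 and 1, against 3332 and 2529 of all genes. The median log2 ratio of the members was 0.41 with processed signals and 0.39 with the value table. It was 0.048 when dim probes were kept, and 0.46 when both groups had to be above background, which left 18 members, 9 higher and 1 lower. Under the latter filter 2709 of 15390 genes were higher and 1997 lower, with a median of 0.006. With dim probes kept, 12 entries were higher, against 3038 of 27554 genes, the added one being Spag6l. Leaving out an array gave medians of 0.23 to 0.27 and 11 higher and 1 lower each time, against 2865 to 3131 higher and 2104 to 2386 lower of all genes. Leaving out a replicate, which leaves no test, gave medians of 0.22 and 0.29. The median over all genes was -0.08 with median centring. Low signal left 27 of 53 members untested, and no direction is given for them other than the bound for Spag6.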
